A study of Danio rerio with 12 samples.

Results

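The circadian clock genes per1b, per3, cry1a, cry3a, cry3b and nr1d2b were followed through bulk RNA-Seq of sorted adult zebrafish retinal cells. They are the 6 features, of 30258 in the count table, that carry one of these symbols in the authors' deposited comparison tables. All 6 owe that symbol to the table of LWS1 against LWS2 cones, which holds only genes with an adjusted p under 0.1. Their difference between LWS1 and LWS2 cones is therefore described, and is no independent evidence of its direction. The same LWS1 and LWS2 libraries enter the orders of group means and the comparisons with the tdTomato groups. Those results are not free of this choice of genes either, and only tdTomato+ against tdTomato- uses other libraries.

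The 12 libraries form 4 groups of 3. LWS1 cones (GFP+) and LWS2 cones (RFP+) came from the lws:PAC(H) line, in which GFP reports lws1 and dsRedExpress reports lws2 from a PAC clone of the opsin locus. The tdTomato+ cones, which hold both kinds of LWS cone, and the tdTomato- retinal cells came from thrb2:tdTomato fish, in which the thyroid hormone receptor beta 2 promoter drives the reporter. All fish were adults of both sexes labelled wild type apart from these reporters, were kept on a light/dark cycle, were collected near light onset and were held in the dark until dissection. The labels do not say how many fish made a library or whether replicates came from separate fish, so p-values measure only the spread between these libraries. Comparisons between the lines set different transgenes, fluorophores and sorts against each other, and line and cell population cannot be told apart in them. Within the lws:PAC(H) line, GFP+ cells are set against dsRedExpress+ cells, so reporter and cone type cannot be told apart there. The paper names misfolding and cell stress from dsRedExpress as a potential explanation of proteasome transcripts enriched in LWS2 cones. Its part in the levels of the clock genes was not tested.

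In the vertebrate clock, CLOCK and BMAL proteins switch on the period (per) and cryptochrome (cry) genes, whose proteins return to repress CLOCK and BMAL. REV-ERB nuclear receptors, of which nr1d2b encodes one, repress and ROR receptors activate the BMAL genes, which adds a second loop. Zebrafish carry several copies of most of these genes, their cells can be set by light directly, and photoreceptors hold a clock of their own that drives melatonin synthesis. Some zebrafish clock genes, cry1a and per2 among them, are known to be switched on by light.

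Levels are CPM, counts per total with each total first multiplied by a TMM factor, which adjust for a few genes taking up much of a library. Library totals ranged from 459226 counts (tdTomato- replicate 1) to 3189337 counts, and mitochondrial genes took from 12.9% (LWS2 replicate 1) to 71.7% (tdTomato+ replicate 2) of them. In tdTomato- replicate 1, 3 counts, taken as the smallest detectable number, correspond to 9.95 CPM, against 0.626 to 4.40 CPM in the other 11 libraries. Counts are from reads without molecular identifiers, so these floors cover counting error only. The opsin opn1lw1 had 17062 to 23131 CPM in LWS1 and 3297 to 6567 CPM in LWS2, and opn1lw2 had 1371 to 8492 CPM in LWS1 and 11231 to 14414 CPM in LWS2. In the tdTomato- libraries, which the labels also call cone photoreceptor, thrb was at 13.3 to 98.3 CPM against 586 to 1272 CPM in the 9 cone libraries, and the rod opsin rho was at 11269 to 36788 CPM against 1154 to 8861 CPM.

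The period genes encode the proteins that build up and repress their own transcription. In replicates 1, 2 and 3, per1b (ENSDARG00000012499) had 557, 253 and 374 CPM in LWS1 cones, 215, 206 and 217 CPM in LWS2 cones, 221, 140 and 213 CPM in tdTomato+ cones and 186, 76.4 and 98.9 CPM in tdTomato- cells. The group means were 395 ± 153, 213 ± 6.04, 191 ± 44.4 and 120 ± 57.7 CPM (SD, n = 3 each). All 3 LWS1 libraries lay above the other 9, and the LWS2 libraries were the most alike of any group, with a ratio of highest to lowest of 1.05 against 2.21 in LWS1. For per3 (ENSDARG00000010519), the levels were 574, 524 and 518 CPM in LWS1, 289, 381 and 304 CPM in LWS2, 301, 310 and 480 CPM in tdTomato+ and 295, 188 and 186 CPM in tdTomato-. Its means were 539 ± 30.8, 325 ± 49.3, 364 ± 100.4 and 223 ± 62.5 CPM (SD, n = 3 each). Again the LWS1 libraries were above all others, while LWS2 and tdTomato+ overlapped.

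The gene nr1d2b (ENSDARG00000009594) encodes a REV-ERB beta receptor, the repressor of the second loop. It had 332, 324 and 308 CPM in LWS1, 209, 247 and 242 CPM in LWS2, 369, 248 and 242 CPM in tdTomato+ and 103, 240.3 and 248 CPM in tdTomato-. The means were 321 ± 12.3, 233 ± 20.4, 286 ± 71.2 and 197 ± 81.8 CPM (SD, n = 3 each). The tdTomato libraries other than replicate 1 of each group lay between 240.3 and 248 CPM, close to the 2 higher LWS2 libraries, and replicate 1 was the highest library of tdTomato+ and the lowest of tdTomato-.

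Cryptochromes bind CLOCK and BMAL and hold them inactive. The light-inducible cry1a (ENSDARG00000045768) had 133, 108 and 99.7 CPM in LWS1, 79.9, 55.9 and 64.0 CPM in LWS2, 130.04, 78.0 and 80.0 CPM in tdTomato+ and 106, 192 and 115 CPM in tdTomato-, with means of 114 ± 17.5, 66.6 ± 12.2, 96.0 ± 29.5 and 138 ± 47.0 CPM (SD, n = 3 each). With TMM scaling, its order differed from that of the period genes, with tdTomato- first and LWS2 last. For cry3a (ENSDARG00000069074), also named cry1ba, the levels were 304, 284 and 353 CPM in LWS1, 167, 207 and 172 CPM in LWS2, 123.3, 764 and 631 CPM in tdTomato+ and 126, 564 and 473 CPM in tdTomato-, with means of 314 ± 35.8, 182 ± 22.2, 506 ± 338 and 388 ± 231 CPM (SD, n = 3 each). Replicate 1 stood far below replicates 2 and 3 in both tdTomato groups. Its paralog cry3b (ENSDARG00000091131), also named cry1bb, had 95.0, 37.7 and 133 CPM in LWS1, 29.1, 21.0 and 26.3 CPM in LWS2, 26.3, 125 and 104 CPM in tdTomato+ and 3.32, 96.3 and 76.5 CPM in tdTomato-, with means of 88.7 ± 48.2, 25.5 ± 4.10, 85.1 ± 52.0 and 58.7 ± 49.0 CPM (SD, n = 3 each). The lowest of these values rests on 1 count, which is under the floor of that library. Sequences of the paralogs (per1b with its per1 partner, the cry1 and cry3 copies) were not compared. Any reads shared between copies could have been split by the authors' counting, so the level of each copy carries that uncertainty.

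**Figure D1:**
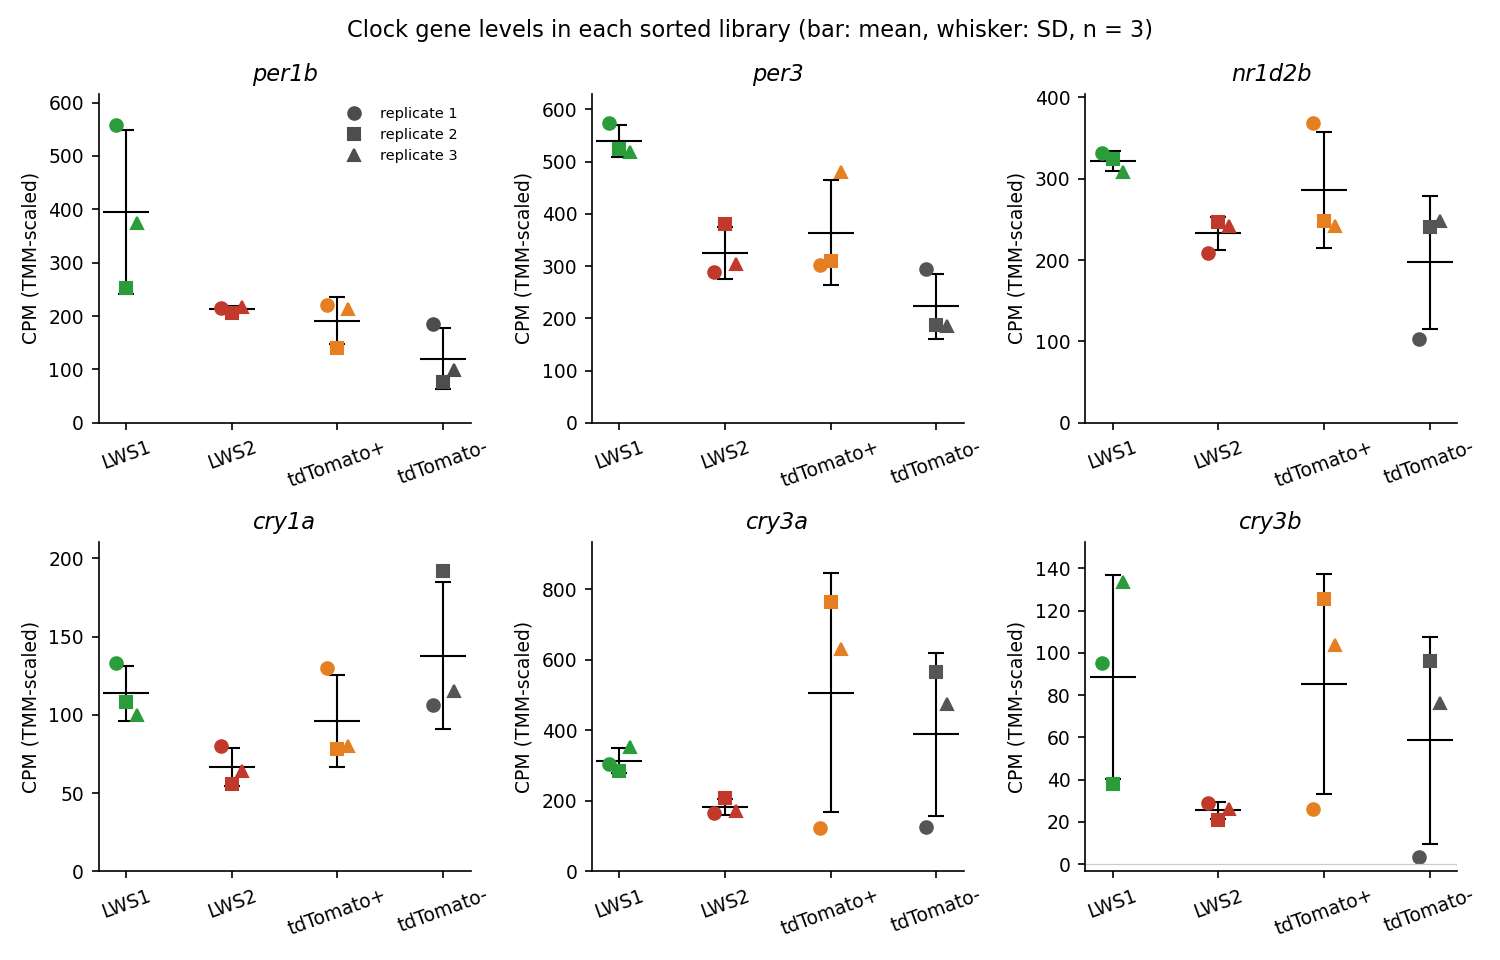
Level (CPM with TMM scaling, linear axes from 0) of the 6 clock genes in each of 12 libraries. Symbols show replicates 1 to 3, bars the mean and whiskers the SD of 3 libraries. For per1b and per3 the 3 LWS1 libraries lie above all others, and for cry3a and cry3b replicate 1 of both tdTomato groups lies far below replicates 2 and 3.

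With this scaling, LWS1 had the highest mean for per1b, per3, cry3b and nr1d2b, tdTomato- for cry1a and tdTomato+ for cry3a. No 2 groups that were neighbours in the order of any of the 6 genes differed past the threshold. The order of means was the same for per1b when CPM were computed from total counts or from total counts without mitochondrial genes, and LWS1 stayed first for per3 and nr1d2b. For cry1a, tdTomato- came second to LWS1 under CPM from total counts (100.4 against 132 CPM), and LWS2 came before tdTomato+ (99.1 against 85.3 CPM). Under the same scaling LWS1 came before tdTomato- for cry3a (357 against 288 CPM). There LWS2 also came before tdTomato+ for per3 (486 against 319 CPM) and nr1d2b (348 against 251 CPM). For cry3b, tdTomato+ came before LWS1 under CPM without mitochondrial genes (138 against 133 CPM).

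The first comparison asks whether LWS1 and LWS2 cones, which sit in different parts of the retina and differ in their opsin, differ in other transcripts. All 6 clock genes were lower in LWS2 cones, and for each of them the highest LWS2 library was below the lowest LWS1 library. On the log2 scale, LWS2 over LWS1, the fold changes were -1.77 for cry3b (SE 0.407, edgeR FDR = 0.0616), -0.89 for per1b (SE 0.266, FDR = 0.146), -0.78 for cry3a (SE 0.181, FDR = 0.0666), -0.78 for cry1a (SE 0.240, FDR = 0.162), -0.73 for per3 (SE 0.176, FDR = 0.0796) and -0.46 for nr1d2b (SE 0.171, FDR = 0.251). A feature was called at an FDR under 0.05 and a fold change above 2, and 0 of the 6 were called by edgeR, beside 1.80% of the 8432 features tested. At an unadjusted p under 0.05 the number was 6 of 6, beside 14.6% of all features. DESeq2 called 1 (cry3b, log2 fold change -1.83, FDR = 0.00189), beside 358 features over all tested. Its FDR values for the 6 ran from 0.000987 (cry3a) to 0.0470 (nr1d2b), and each fold change other than that of cry3b was below 2. Over all features, 21.1% had groups without overlap, in one direction or the other. Since the 6 genes carry symbols because of this contrast, nothing is read from these counts.

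Each of these differences depends in size on how libraries are scaled. Under CPM from total counts, 0 of the 6 had groups that did not overlap, and 5 did under CPM without mitochondrial genes, all lower in LWS2. Over all features, 2.98% were lower in LWS2 without overlap and 25.3% higher under the first of these scalings, and 4.95% lower and 18.2% higher under the second. Under the total-count scaling the mean log2 difference (CPM + 0.5) over all features tested had a median of 0.48, against 0.09 with TMM factors. The differences of the 6 genes then ran from -1.23 (cry3b) to -0.07 (nr1d2b), which is -1.71 to -0.55 relative to that median. Mitochondrial genes took 18.9% to 29.7% of counts in LWS1 and 12.9% to 13.8% in LWS2, and without them in the fit the fold change of cry3b was -1.78 (FDR = 0.0656) and 0 of the 6 were called. The summed level of 9 rod markers was 2260 to 4743 CPM in LWS1 and 1716 to 3058 CPM in LWS2, and that of 11 Müller glia markers was 760 to 1741 and 500 to 1273 CPM. The part of these cells in the differences was not tested, nor was that of the reporters, GFP in LWS1 and dsRedExpress in LWS2. Leaving out LWS1 replicate 2, the LWS1 library lowest for per1b and cry3b, gave 2 calls, cry3b at -2.12 (FDR = 0.00961) and per1b at -1.11 (FDR = 0.0424), and each of the other 5 fits without a library gave 0. The fit without LWS1 replicate 2 called 115 features over all tested, against 152 with all libraries.

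**Figure D2:**
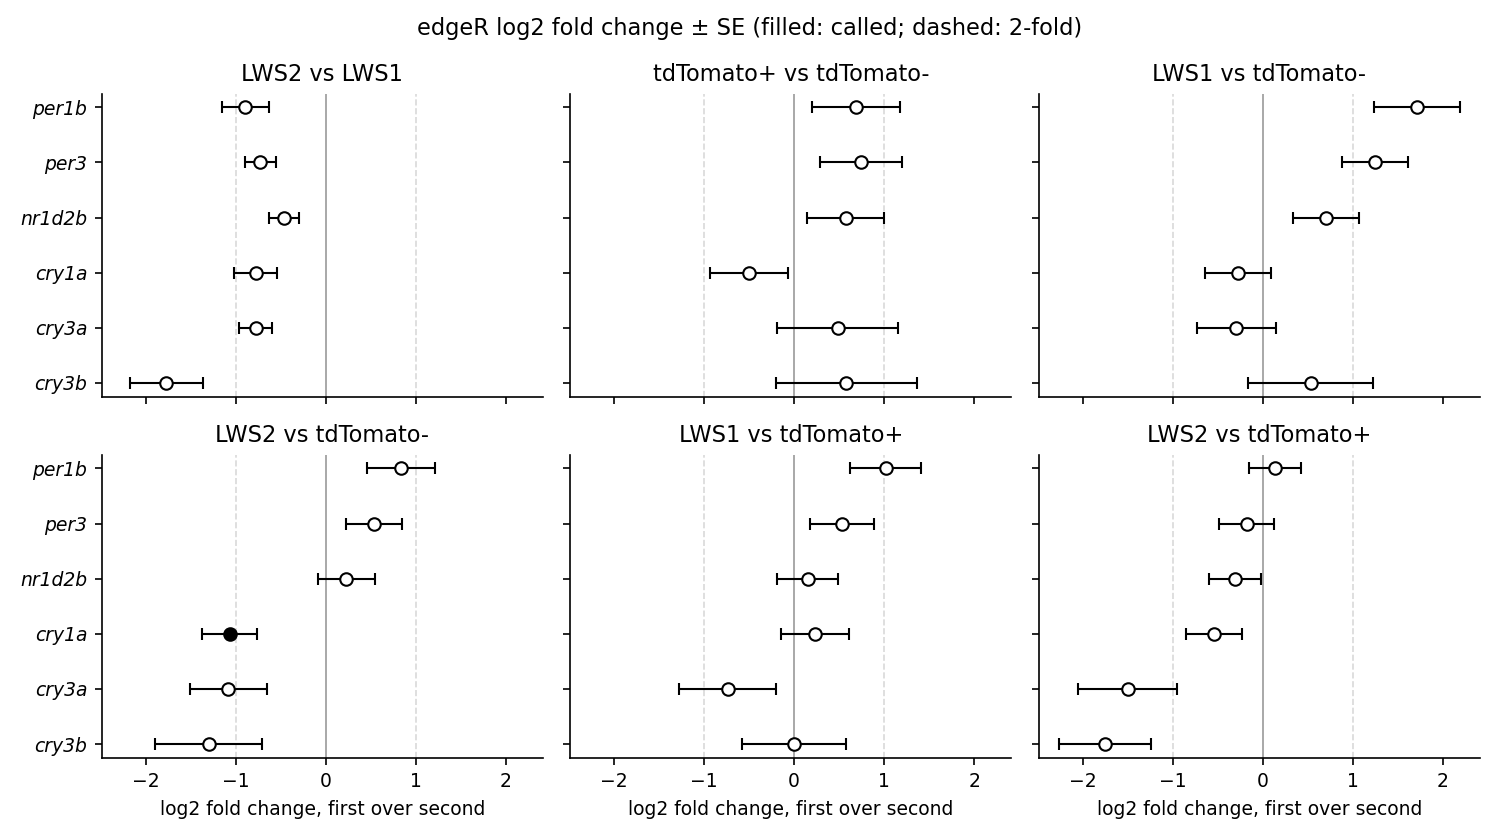
Log2 fold change (first named group over second) of the 6 clock genes in 6 comparisons, from edgeR, with whiskers of 1 SE on each side. Filled points are called (FDR under 0.05 and fold change above 2), which applies only to cry1a in LWS2 vs tdTomato-, and dashed lines mark a fold change of 2. All 6 points lie left of 0 in LWS2 vs LWS1.

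Within the thrb2:tdTomato line, tdTomato+ cones were compared with the tdTomato- cells. The period genes and nr1d2b were higher on average in tdTomato+ cones and cry1a lower, but none of the differences passed the test. The log2 fold changes, tdTomato+ over tdTomato-, were 0.74 for per3 (SE 0.457), 0.69 for per1b (SE 0.489), 0.57 for nr1d2b (SE 0.432), 0.58 for cry3b (SE 0.781), 0.48 for cry3a (SE 0.672) and -0.50 for cry1a (SE 0.429), where the median over all 8236 features tested was 0.11. FDR values from edgeR ran from 0.556 (per3) to 0.828 (cry3a). Of the 6, 0 were called, beside 2.14% of all features. At an unadjusted p under 0.05 there were 0, beside 13.4% of all features. DESeq2 also called 0 of the 6, beside 478 features over all tested. Only per3 had groups that did not overlap, tdTomato+ being higher, where 18.9% of all features had such groups, and it had none under CPM from total counts or without mitochondrial genes. The tdTomato- sort held 8106 to 13548 CPM of 11 Müller glia markers, against 210 to 1698 CPM in tdTomato+ cones, and 15396 to 40848 CPM of 9 rod markers, against 4641 to 12989 CPM. The summed level of 6 opsins of other cone types was 15830 to 32066 CPM in tdTomato-, against 5550 to 16279 CPM in tdTomato+. That of 9 cone markers was 17694 to 25677 CPM, against 46697 to 63695 CPM. The summed level of 4 amacrine markers was also lower in tdTomato- (13.3 to 87.4 CPM) than in tdTomato+ (187 to 269 CPM). Ranges of the bipolar, horizontal, ganglion, microglia, RPE and blood lists overlapped between the sorts. In tdTomato-, opn1lw1 was at 149 to 2243 CPM and opn1lw2 at 196 to 2513 CPM. The tdTomato- sort is therefore a mixture that also holds transcripts of other cones and of the LWS opsins. In it, fewer cells of a type and less RNA per cell cannot be told apart.

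Both sorts of the lws:PAC(H) line were also set against the tdTomato- cells. The 6 genes were chosen through these LWS1 and LWS2 libraries, which limits these comparisons and those with tdTomato+ cones. In LWS1 cones, per1b was 1.72 higher on the log2 scale (SE 0.474, edgeR FDR = 0.0502), per3 was 1.25 higher (SE 0.362, FDR = 0.0615) and nr1d2b was 0.70 higher (SE 0.362, FDR = 0.3002). The 3 LWS1 libraries lay above the 3 tdTomato- libraries for these 3 genes, under all 3 scalings. Over all features, 14.1% were higher in LWS1 without overlap with TMM scaling. This share was 31.0% under CPM from total counts and 12.8% under CPM without mitochondrial genes. In either direction, 27.3%, 37.1% and 26.0% of all features had groups that did not overlap. The cryptochromes had log2 fold changes of -0.28 (cry1a, SE 0.367), -0.29 (cry3a, SE 0.442) and 0.54 (cry3b, SE 0.693), with groups that overlapped. None of the 6 was called by edgeR, beside 7.09% of the 6361 features tested, while 2 had an unadjusted p under 0.05 and DESeq2 called the same 2, per1b (FDR = 0.0208) and per3 (FDR = 0.0305). Settings of the fit changed the outcome, as per1b and per3 were also called by edgeR without a filter and with all groups in one fit. Among single libraries, only leaving out the smallest, tdTomato- replicate 1, changed it. Without tdTomato- replicate 1, edgeR called per1b at 2.24 (FDR = 0.00815) and per3 at 1.58 (FDR = 0.00541). That fit called 813 features over all tested, against 451 with all libraries, so the gain is not particular to these genes. Without any other single library edgeR called 0 of the 6.

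For LWS2 cones against tdTomato- cells, the log2 fold changes were 0.84 for per1b (SE 0.373, edgeR FDR = 0.187), 0.53 for per3 (SE 0.313, FDR = 0.320) and 0.23 for nr1d2b (SE 0.318, FDR = 0.700), with all 3 LWS2 libraries above the tdTomato- libraries for per1b. Among the cryptochromes, cry1a was lower by -1.07 (SE 0.307, FDR = 0.0480), with no overlap between groups, and it was the only one of the 6 to be called, beside 12.5% of the 9604 features tested. Groups that did not overlap were found for per1b and cry1a, where 33.3% of all features had them. For cry3a the fold change was -1.08 (SE 0.428, FDR = 0.138) and for cry3b -1.30 (SE 0.597, FDR = 0.201).

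The call of cry1a did not hold widely. DESeq2 made it as well (log2 fold change -1.03, FDR = 0.0391), beside 1489 features over all tested. The call was lost with RLE size factors (FDR = 0.0567), without mitochondrial genes (FDR = 0.0621), with all groups in one fit (FDR = 0.0854) and without a filter on low counts (log2 fold change -0.87, FDR = 0.140). Leaving out single libraries ended it in 5 of 6 cases, namely without LWS2 replicate 1 (FDR = 0.129), 2 (FDR = 0.170) or 3 (FDR = 0.215) and without tdTomato- replicate 2 (log2 fold change -0.72, FDR = 0.253) or 3 (FDR = 0.119). Leaving out tdTomato- replicate 1 gave 4 calls in place of 1. These were cry1a at -1.17 (FDR = 0.00721), cry3a at -1.47 (FDR = 0.00023), cry3b at -1.73 (FDR = 0.000505) and per1b at 1.33 (FDR = 0.000714). Calls over all features also moved when single libraries were left out, with the range given at the end. Nothing particular to these genes is read from the gain. Under CPM from total counts the mean log2 difference of cry1a was 0.04, in the opposite direction, where the median of all features was 1.23, so that cry1a lay at -1.19 relative to that median.

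Against the tdTomato+ cones, which hold both LWS cone types, the LWS1 and LWS2 cones share those 3 libraries, and each comparison is given on its own. LWS1 over tdTomato+, the log2 values were 1.02 for per1b (SE 0.393, edgeR FDR = 0.730) and 0.53 for per3 (SE 0.359, FDR = 0.939), and all LWS1 libraries lay above all tdTomato+ libraries for both. The others had log2 fold changes of 0.23 (cry1a, SE 0.376), 0.15 (nr1d2b, SE 0.340), 0.00 (cry3b, SE 0.579) and -0.74 (cry3a, SE 0.534). Of the 6, 0 were called, beside 0.0139% of the 7214 features tested (1 feature). At an unadjusted p under 0.05 there was 1, beside 5.38% of all features. DESeq2 called 0 of the 6, beside 45 features over all tested. Groups that did not overlap were found for 2 of the 6 and for 9.94% of all features. Under CPM from total counts this held for 2 of the 6 and 10.9% of all features. Under CPM without mitochondrial genes it held for 1 of the 6 and 10.1% of all features.

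In LWS2 over tdTomato+, the pair cry3a and cry3b were lower, at -1.50 (SE 0.549, edgeR FDR = 0.378) and -1.75 (SE 0.509, FDR = 0.216), and the other 4 lay between -0.54 (cry1a, SE 0.312) and 0.14 (per1b, SE 0.285). None of the 6 was called by edgeR, beside 0.844% of the 9598 features tested, 2 had an unadjusted p under 0.05 and DESeq2 called cry3b (FDR = 0.0386). No gene of the 6 had groups that did not overlap, where 15.7% of all features had them. Without tdTomato+ replicate 1, edgeR called cry3a at -1.95 and cry3b at -2.18 (FDR = 0.00314 each), and without any other single library it called 0. Calls over all features also moved when single libraries were left out, with the range given at the end. Nothing particular to the pair is read from these calls.

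In the thrb2:tdTomato line, replicate 1 stood apart in the cry3 pair in both sorts. In tdTomato+ cones the mean of replicates 2 and 3 was 5.66 times replicate 1 for cry3a and 4.34 times for cry3b, and in tdTomato- cells it was 4.12 times for cry3a. In LWS1 and LWS2 the same ratio lay between 0.813 and 1.14 for both genes, although the LWS1 libraries also differed in cry3b, with a ratio of highest to lowest of 3.54 against 4.75 in tdTomato+. After this was seen, the clock list was searched for other genes with replicate 1 more than 3-fold below both others in both tdTomato groups. Apart from cry3a and cry3b, which prompted the search, there were 4 of 42 list features kept (9.52%), where 3.95% of 10154 kept features (401) had this pattern, and 0 of the list had the opposite one, which 0.325% of features (33) showed. The 4 were per2, rorcb, nfil3-5 and aanat2, and nothing is called particular to the list from their share. The search applied no count floor, used TMM-scaled levels only and was not repeated under the other scalings. The TMM factor was 0.445 in tdTomato+ replicate 2 and 1.07 in replicate 1, with totals of 2863183 and 2784878 counts. In replicates 2 and 1 of tdTomato+, cry3a had 970 and 365 counts, cry3b 159 and 78, and per2 363 and 175. There rorcb had 593 and 208 counts and aanat2 623 and 132. In tdTomato- replicate 1, nfil3-5 and aanat2 had 0 counts and per2 had 4, and nfil3-5 had 1 count in tdTomato+ replicate 1.

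Of these 4, the light-inducible period gene per2 had 59.1, 286 and 294 CPM in tdTomato+ and 13.3, 259 and 242 CPM in tdTomato-, while its LWS1 and LWS2 libraries lay between 41.7 and 118 CPM. For rorcb, a ROR receptor gene, the levels were 70.3, 467 and 446 CPM in tdTomato+ and 66.3, 349 and 254 CPM in tdTomato-. The gene aanat2, which encodes an enzyme of melatonin synthesis, had 44.6, 491 and 196 CPM in tdTomato+ and 0, 234 and 155 CPM in tdTomato-. In each of the 3, both replicates numbered 1 were the lowest of the 6 tdTomato libraries. By contrast, per1b was highest in replicate 1 in both tdTomato sorts, while per3, nr1d2b and cry1a went opposite ways in the 2 sorts. For cry1a, the other light-inducible gene named above, replicate 1 was the highest tdTomato+ library (130.04 against 78.0 and 80.0 CPM). In tdTomato- cells it was the lowest for cry1a (106 against 192 and 115 CPM). Replicate 1 was the highest tdTomato- library for per3 (295 against 188 and 186 CPM). It was the lowest tdTomato+ library for that gene (301 against 310 and 480 CPM). The sources used here do not give a collection time for each library, and neither its part in these differences nor that of the depth of tdTomato- replicate 1 was tested. With replicates 1 of both tdTomato groups left out, an alternative chosen after seeing the data, edgeR again called 0 of the 6 in tdTomato+ vs tdTomato-.

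**Figure D3:**
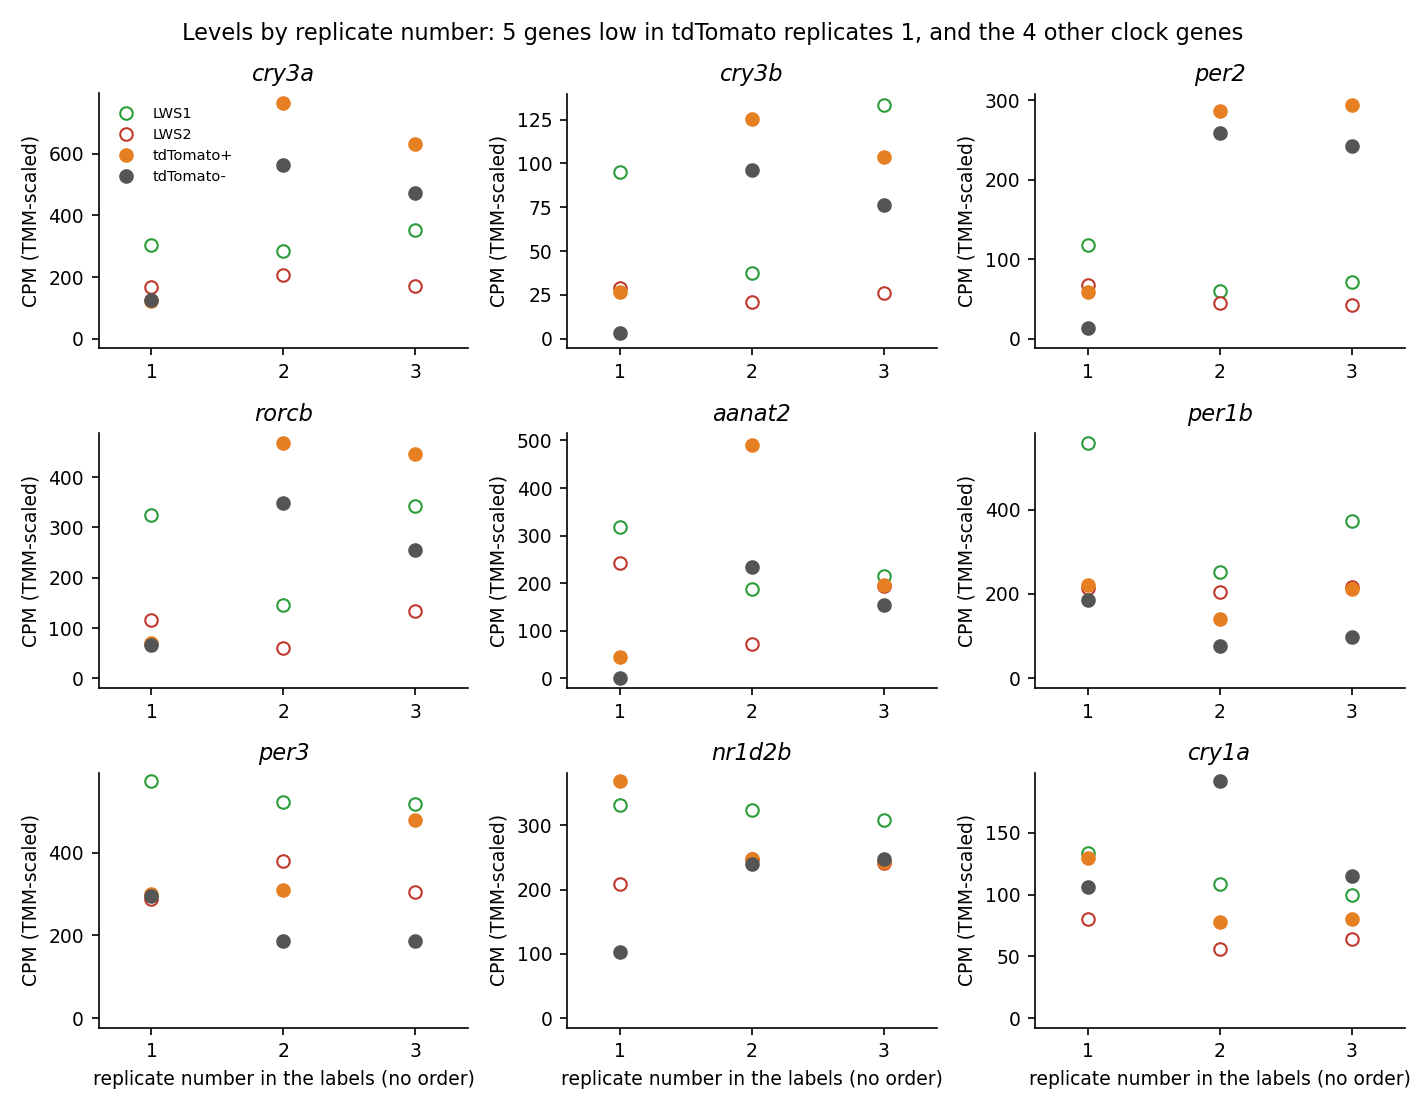
Level (CPM with TMM scaling, linear axes) by the replicate number in the labels, which carries no order, for 5 genes low in replicate 1 of both tdTomato groups (top row, rorcb and aanat2) and for the 4 other clock genes. Filled points are tdTomato libraries and open points LWS1 and LWS2 libraries. For per2, replicates 2 and 3 of both tdTomato sorts lie between 242 and 294 CPM, and both replicates 1 lie under 60 CPM.

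Ratios between genes within a library do not depend on scaling. The log2 ratio of cry3b to cry3a counts (0.5 added to each) averaged -1.99 ± 0.797 in LWS1, -2.84 ± 0.409 in LWS2, -2.48 ± 0.222 in tdTomato+ and -3.28 ± 1.21 in tdTomato- (SD, n = 3 each). The difference was -0.84 between LWS2 and LWS1 (two-sided exact permutation test, p = 0.3) and 0.81 between tdTomato+ and tdTomato- (p = 0.4), where 3 libraries against 3 cannot give a p below 0.1. The second difference rests on the 1 count of cry3b in tdTomato- replicate 1, and without that library it was 0.11. In replicates 2 and 3 of both tdTomato groups cry3b counts were 0.162 to 0.171 of cry3a counts, although both genes differed severalfold from replicate 1. For per3 to per1b the log2 ratio averaged 0.52 ± 0.507 in LWS1, 0.60 ± 0.251 in LWS2, 0.92 ± 0.411 in tdTomato+ and 0.96 ± 0.318 in tdTomato-, with differences of 0.08 (LWS2 minus LWS1, exact permutation p = 0.9) and -0.03 (tdTomato+ minus tdTomato-, exact permutation p = 1.0).

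Over the 12 libraries, per1b varied with per3 and cry3a with cry3b. The Pearson correlation of log2(CPM + 0.5) was 0.88 between per1b and per3, 0.82 between cry3a and cry3b and 0.65 between cry3b and nr1d2b, and the other 12 pairs lay between -0.33 and 0.35. These values describe 12 libraries that share lines, sorts and scaling, and carry no test. Among the 9507 kept features with a symbol, the 3 nearest in pattern to per1b were cplx4a (0.92), pdpk1a (0.90) and LENG1 (0.88), and those nearest to per3 were myo3a (0.95), rpgra (0.94) and UBE2QL1 (0.93). For cry3a they were camta1a, CNTN1 and MXI1 (0.92 each), for cry3b inpp5l (0.96), PDP1 (0.96) and pbx4 (0.95), for nr1d2b gas1a (0.95), MMAB (0.94) and gatd3a (0.94), and for cry1a ATG9A (0.86), prnprs3 (0.83) and DERL3 (0.80).

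The rest of the pathway was read from a list of 54 clock and melatonin gene names, of which 51 matched a feature. Some symbols in it are those of the human gene, so partner copies are given with their identifier. In LWS2 vs LWS1, 39 of the 51 were tested and 0 were called, 29 had a log2 fold change below 0, and their median was -0.51 against -0.02 over all features, of which 51.3% were below 0. Without the 6 genes the median of 33 was -0.44 and 23 were below 0. At an unadjusted p under 0.05 there were 12 of 39, all lower in LWS2, and 6 of 33 without the 6 genes, or roraa (log2 fold change -0.90), rorcb (-1.37), asmt (-1.45), csnk1db (-0.63), nfil3-5 (-1.91) and nfil3-6 (-1.09), where 14.6% of all features passed it in either direction. These 6 were named after their values had been seen. Of these, roraa and rorcb encode ROR receptors, csnk1db a casein kinase 1 delta of the kind that phosphorylates period proteins, and asmt the enzyme that completes melatonin.

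Partner copies and the factors that drive the loop were measured as well. The features with the symbol CLOCK had 0 to 19.9 CPM (ENSDARG00000003631) and 1.00 to 11.4 CPM (ENSDARG00000011703), and those with the symbol BMAL1 had 0 to 49.2 CPM (ENSDARG00000006791) and 0.338 to 23.6 CPM (ENSDARG00000035732). The partner of per1b, with the symbol PER1 (ENSDARG00000056885), had 6.64 to 41.7 CPM, and the partner of cry1a, with the symbol CRY1 (ENSDARG00000011583), had 9.95 to 54.4 CPM. In LWS2 vs LWS1 the low-count filter removed both CLOCK features and the BMAL1 feature ENSDARG00000035732, so they were not tested. The other BMAL1 feature, PER1 and CRY1 had no unadjusted edgeR p under 0.05. Of the untested features, CLOCK ENSDARG00000011703 had 5.71, 4.92 and 8.80 CPM in LWS1 and 1.00, 1.11 and 1.04 CPM in LWS2. These levels rest on 3 to 11 counts per library, and the groups overlapped for the other untested features.

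In the other comparisons, list features were called only in LWS2 vs tdTomato-. There 4 of 41 tested were lower and 0 higher, or csnk1db (log2 fold change -1.51, edgeR FDR = 0.0133), rorab (-1.06, FDR = 0.0370), nfil3-5 (-2.46, FDR = 0.0474) and cry1a, while the median of the list was 0.02 and that of all features -0.01. The 4 make up 9.76% of the list features tested, beside the 12.5% given above for all features. Casein kinase csnk1db had 162, 197 and 188 CPM in LWS2 and 292, 730 and 542 CPM in tdTomato-, and nfil3-5, related to a mammalian repressor of genes with a D-box element, had 2.34, 1.99 and 5.01 CPM in LWS2 and 0, 24.5 and 21.2 CPM in tdTomato-. In tdTomato+ vs tdTomato- 37 were tested, with a median of 0.48 against 0.11 over all features, and 0 passed even an unadjusted p of 0.05. In LWS1 vs tdTomato- the median of 35 was 0.47 against 0.05, with 6 at an unadjusted p under 0.05, which 20.7% of all features passed. In LWS1 vs tdTomato+ the median of 38 was -0.01 against -0.04, with 2 at that p (5.38% of all features), and in LWS2 vs tdTomato+ the median of 41 was -0.35 against -0.06, with 7 at that p, all lower in LWS2 (10.03% of all features, in either direction). These comparisons share libraries, so their medians are not separate evidence.

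**Figure D4:**
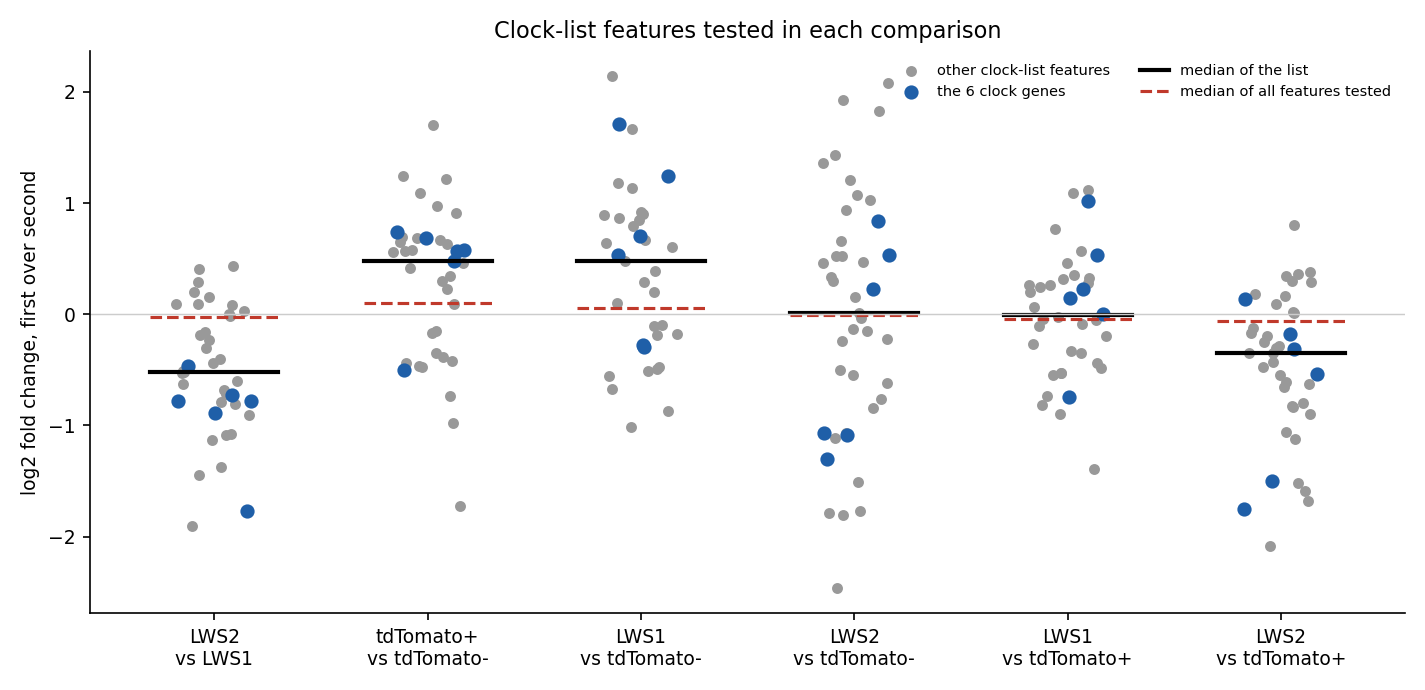
Log2 fold change (first named group over second) of the clock-list features tested in each of 6 comparisons, from edgeR, with the 6 clock genes in blue, the median of the list as a black line and that of all features tested as a dashed line. Points are spread sideways only for legibility. The median of the list is -0.51 in LWS2 vs LWS1 and 0.48 in tdTomato+ vs tdTomato-.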

How the data were processed

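Poly-A RNA of 12 sorted samples was sequenced, 3 for each of 4 groups, and groups and replicate numbers were taken from the labels. After trimming (Trimmomatic 0.36), the authors mapped reads with STAR and with Salmon (0.13.1 in the submitters' processing notes, another version in the paper), the build being GRCz11, and used tximport. The deposited counts are whole numbers for 30258 Ensembl features and are not normalized. Which aligner gave the counts is not stated. Counting of this kind can divide reads between near-identical copies, and poly-A selection keeps mitochondrial transcripts, which take a share of each library. The authors' comparison tables (log2 fold changes, p-values, and 12 columns of per-sample values) were used only for gene symbols. These list genes with an adjusted p under 0.1. Other symbols came from a table of Ensembl IDs, giving 23649 features with a symbol.

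Pairs of groups were compared by the quasi-likelihood test of edgeR 4.0.16 (R 4.3.3), with only the 6 libraries of the pair, a low-count filter (filterByExpr), TMM scaling and Benjamini-Hochberg adjustment over all features tested. Calls required an FDR under 0.05 and a fold change above 2. SE is the log2 fold change over the square root of the test statistic. Levels are CPM with TMM factors over the 12 libraries, and a pseudocount of 0.5 was used on log scales. Ratios were tested by two-sided exact permutation (scipy 1.17.1). The scripts were tested on simulated data. Alternatives were DESeq2 1.42.0, RLE size factors, no filter, a replicate block, all groups in one fit, mitochondrial genes left out and each library left out. After the data were seen, leaving out replicates 1 of both tdTomato groups and CPM from total or non-mitochondrial counts were added. No 2 replicates of a group agreed within sampling noise (chi-square over degrees of freedom 6.24 or more).

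The 6 genes and the lists of clock and marker genes were chosen with earlier results of these data known. All 6 genes are named in every comparison, with list genes that were called and, for likeness, the 3 most correlated features with a symbol. Of the clock list, nfil3-2, fbxl21 and aanat1 were not matched. Promoter and protein sequences were not used here.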

Additional observations from a re-analysis of the deposited data

How the results depend on the processing

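Only cry1a in LWS2 vs tdTomato- was called in the main fits, so every lost call below is that one. The first set of fits used another tool, scaling, filter, block or set of groups, or left out replicates 1 of both tdTomato groups. There, 204 of 222 log2 fold changes of the 6 genes kept their direction and side of the threshold, 5 lost a call, 13 gained one and 0 reversed. In fits that left out 1 library, 195 of 216 kept both, 5 lost and 9 gained a call, and 7 reversed. Depth limits cry3b above all, with 1 count in tdTomato- replicate 1.

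The number of the 6 genes called moved as follows. In LWS2 vs LWS1 it was 1 (cry3b) with DESeq2, without a filter and with a replicate block, and 0 to 2 without a library. In LWS1 vs tdTomato- it was 2 (per1b, per3) with DESeq2, without a filter and with all groups in one fit, 1 (per1b) with a replicate block, and 0 to 2 without a library. In LWS2 vs tdTomato- it was 0 with RLE size factors, a replicate block, all groups in one fit or mitochondrial genes left out, and 0 to 4 without a library. Without a filter it was 1, but per1b (FDR = 0.0375) in place of cry1a. In LWS2 vs tdTomato+ it was 1 (cry3b) with DESeq2 and without a filter, and 0 to 2 without a library. In tdTomato+ vs tdTomato- and LWS1 vs tdTomato+ it was 0 in every fit run.

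The features called among all tested moved more. With DESeq2 they numbered 358 in LWS2 vs LWS1, 478 in tdTomato+ vs tdTomato-, 734 in LWS1 vs tdTomato-, 45 in LWS1 vs tdTomato+ and 243 in LWS2 vs tdTomato+. Without a filter they numbered 678, 617, 924, 108 and 354 in those comparisons and 2142 in LWS2 vs tdTomato-. With all groups in one fit there were 20 in LWS2 vs LWS1, 378 in tdTomato+ vs tdTomato- and 713 in LWS2 vs tdTomato-. Without replicates 1 of both tdTomato groups there were 794 in tdTomato+ vs tdTomato-. Leaving out a library gave 1 to 145 in LWS2 vs LWS1, 0 to 195 in tdTomato+ vs tdTomato-, 55 to 813 in LWS1 vs tdTomato-, 371 to 2222 in LWS2 vs tdTomato-, 0 to 1 in LWS1 vs tdTomato+ and 0 to 571 in LWS2 vs tdTomato+.

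The labels do not say whether libraries with the same replicate number share fish or a sort. The correlations and the block fit given here describe the libraries and cannot decide it. As given above, 401 kept features were over 3-fold low in replicate 1 of both tdTomato groups, and 33 were over 3-fold high. Deviations from group means correlated over 0.1 for at most 2 of the 3 pairs in a comparison (0.17, 0.15 and -0.00 in LWS2 vs LWS1, 0.22, 0.13 and -0.02 in LWS2 vs tdTomato+), and in no comparison did every library correlate best with its own number. With the replicate block, 185 features were called in LWS2 vs tdTomato+ in place of 81, cry3b was called in LWS2 vs LWS1 (log2 fold change -1.64, FDR = 0.0204), per1b in LWS1 vs tdTomato- (1.73, FDR = 0.0196), and cry1a was not in LWS2 vs tdTomato- (-1.04, FDR = 0.0989).

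Fold changes that reversed without a library were those of cry3a in LWS1 vs tdTomato- (-0.67 to 0.0144), nr1d2b in LWS2 vs tdTomato- (-0.0227 to 0.45), cry3b in LWS1 vs tdTomato+ (-0.46 to 0.37), and per1b (-0.0371 to 0.25) and per3 (-0.31 to 0.0779) in LWS2 vs tdTomato+. The log2 ratio of per3 to per1b ranged from -0.16 to 0.35 for LWS2 minus LWS1 and from -0.18 to 0.20 for tdTomato+ minus tdTomato- without a library, and was 0.0557 for the latter without replicates 1 of both groups, where that of cry3b to cry3a was -0.0175 in place of 0.81. Under CPM from total counts, groups did not overlap for 1 of the 6 genes in LWS2 vs tdTomato+ in place of 0, higher in LWS2, where 33.5% of all features were higher in LWS2 without overlap. The causes were not tested.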
